A study of Mus musculus with 20 samples.

Results

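In the neocortex of mouse pups, 6500 regions of open chromatin lay away from annotated promoters and carried none of 3 histone marks reproducibly in WT cells. They were 6500 of 18211 distal regions, and of 32120 consensus regions in all, in the authors' table of ATAC-seq regions. Members were chosen by measured values. A region was taken when its annotation was not a promoter, which the authors placed within 1 kb of a start site, and when neither H3K4me1, H3K27ac nor H3K27me3 had a peak over it in both WT libraries. The absence of these marks in WT is therefore the rule and not a result. Entry to the authors' table rested on ATAC-seq peaks of these same libraries. Beyond that, the ATAC-seq levels, the mark peaks of the Tcf4 cKO libraries, the binding of Tcf4 and the DNA sequence took no part in the choice.

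Cells of the Nkx2.1 lineage, which carried GFP, were sorted from dissected neocortices of pups aged P7 or P8. WT pups carried Nkx2.1-Cre and the Cre reporter Ai3, and Tcf4 cKO pups carried the same alleles together with Tcf4 f/f, so Cre was present in both groups and was driven by Nkx2.1 in both. Binding of Tcf4 was measured in the Tcf4-tag mouse, whose Tcf4 protein gains a Flag/HA tag at its C terminus in the Nkx2.1 lineage, with an anti-Flag antibody. ATAC-seq and Cut&Tag for each mark had 2 libraries per genotype, and anti-Flag Cut&Tag had 2 libraries, 18 in all. The sorted cells were a mixture. Of the marker genes listed for oligodendrocyte precursors (OPCs) and oligodendrocytes, 12 of 19 had an open promoter in the consensus table, against 18 of 20 for astrocytes, 14 of 18 for interneurons, 6 of 11 for projection neurons, 1 of 8 for microglia and 4 of 8 for endothelial cells. In WT, promoters of 8, 12, 7, 2, 0 and 2 of these genes carried H3K27ac, in the same order of cell types. H3K27me3 was found at 0, 4, 12, 3, 0 and 4, so an open promoter alone does not show that a cell type was present. A mark that is present in few of the cells and a mark that is absent cannot be told apart in such a mixture.

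Open chromatin outside promoters is usually sorted by its histone marks. H3K4me1 lies over enhancers, H3K27ac over those that are active, and H3K27me3 over chromatin held silent by Polycomb. Some open sites carry none of them, and sites held by the insulator protein CTCF are a known example. Tcf4 is a class I bHLH protein, or E protein, which binds the E-box CANNTG and favours CAGCTG in dimers with other bHLH proteins. The other distal regions were sorted in the same way by WT peaks of both libraries into 5702 primed regions with H3K4me1 alone, 4924 active regions with H3K27ac and no H3K27me3, and 1085 Polycomb-marked regions with H3K27me3.

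The sequences below are the 150 bases around the centre of members that the results turn on. They were read 5′ to 3′ on the plus strand of GRCm38, which is the mm10 build of the files. Capitals mark the letters of a motif found on either strand, which were the CTCF core, CAGCTG, the NFI core TTGGCA, the SOX core ACAANG and the AP-1 core TGANTCA. The first pair held the CTCF core and were the most open of the members that did. The next held 2 copies of CAGCTG and showed the largest loss of mean accessibility in Tcf4 cKO. The fourth held the NFI and AP-1 cores and was among the members with the largest gain. The last pair had the strongest Tcf4 peaks of all members, and neither showed CAGCTG in these bases.
Tex44 region, chr1:86440552-86440701: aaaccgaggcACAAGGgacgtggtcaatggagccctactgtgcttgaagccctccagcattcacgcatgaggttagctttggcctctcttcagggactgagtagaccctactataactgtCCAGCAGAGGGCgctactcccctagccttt
Crb2 region, chr2:37771860-37772009: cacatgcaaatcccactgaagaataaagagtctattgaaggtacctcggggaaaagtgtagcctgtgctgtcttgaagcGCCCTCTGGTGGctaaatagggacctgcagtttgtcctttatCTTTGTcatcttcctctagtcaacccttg
Raet1a region, chr10:22354099-22354248: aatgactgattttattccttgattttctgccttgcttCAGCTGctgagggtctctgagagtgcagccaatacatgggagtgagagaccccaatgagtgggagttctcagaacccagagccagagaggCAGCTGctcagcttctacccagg
Gm13726 region, chr2:78006000-78006149: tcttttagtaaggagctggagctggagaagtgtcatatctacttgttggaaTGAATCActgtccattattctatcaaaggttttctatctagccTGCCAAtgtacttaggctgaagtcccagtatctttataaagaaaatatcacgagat
Fhl4 region, chr10:85026065-85026214: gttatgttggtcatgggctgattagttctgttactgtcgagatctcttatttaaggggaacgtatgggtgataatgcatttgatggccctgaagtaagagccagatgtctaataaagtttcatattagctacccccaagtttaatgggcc
Lpp region, chr16:24583578-24583727: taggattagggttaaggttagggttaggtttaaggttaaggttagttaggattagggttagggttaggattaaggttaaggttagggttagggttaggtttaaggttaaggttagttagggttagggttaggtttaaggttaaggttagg

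No test between genotypes was run on these regions. With 2 libraries against 2, an exact two-sided permutation test cannot give a p below 0.33, and regions of 1 library are not replicates of a condition. Shares are given with 95% Wilson intervals, which cover counting error over regions only, beside the same share in other regions. The depth in reads is unknown from these files. The lists held between 15085 and 72790 peaks per WT or Tcf4 cKO library, and their lengths differed between genotypes, as given below for H3K4me1.

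The unmarked regions were open in nearly every library, which their entry to the consensus table through ATAC-seq peaks fixes in part. WT replicates 1 and 2 had an ATAC-seq peak at 94.0% and 97.8% of them, and Tcf4 cKO replicates 1 and 2 at 93.9% and 94.8%. Peaks in all 4 libraries were found at 5552 members, or 85.4% (84.5 to 86.3), compared with 90.8% of primed and 98.1% of active distal regions. Their level was close to that of primed regions and below that of active ones. The authors' mean for WT, in log2 normalized reads, had a median of 6.02 with quartiles of 5.48 and 6.69, where primed regions had a median of 6.05, Polycomb-marked regions 6.73 and active regions 7.18. The width of members had a median of 726 bp, against 839 bp for all distal regions.

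Position set the members only slightly apart from the rest. Introns held 49.6% (48.4 to 50.8) of members and 43.6% of all distal regions, and intergenic sequence held 38.6% and 44.3%. Exons held 5.82%, UTRs 3.6% and sequence just downstream of genes 2.46%. The nearest annotated start in GENCODE M21 lay at a median of 10883 bp, and 361 members, or 5.55%, lay within 1 kb of a start that the authors' annotation had not called a promoter. The median GC content of the central bases was 48.7%, and soft-masked repeats made up a median of 10.1% of a member. Of the 5287 members whose nearest gene had a symbol, 66.7% (65.5 to 68) were nearest to a gene with an open promoter in the consensus table, against 61.2% of primed and 62.0% of active regions.

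The X chromosome stood apart. Of its 253 distal regions, 143 were unmarked, or 56.5% (50.4 to 62.5), compared with 35.4% (34.7 to 36.1) on the autosomes. Most of the gap lay in H3K4me1, for which WT replicates 1 and 2 had a peak at 39.9% and 49.8% of distal regions on X and at 64.1% and 70.9% on the autosomes. In Tcf4 cKO, 53.4% of the X-linked and 29.6% of the autosomal distal regions were unmarked by the same rule. Distal regions on X were also less open, with a median WT mean of 6.03 against 6.34. The X chromosome held few of the distal regions in all, so the interval of its share is wide.

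The rule has a threshold, since a peak in 1 WT library did not take a region out. In 2496 members, or 38.4%, no WT mark library had a peak, while 2889 members had a peak in 1 of the 6 WT mark libraries, 1077 in 2 libraries and 38 in 3. When 1 library of each mark decided alone, 3978 regions were unmarked without WT replicate 1 and 4439 without WT replicate 2. For H3K4me1, 3227 members had a peak in 1 of the 2 libraries, 1163 of them in replicate 1 and 2064 in replicate 2. Those peaks had a median fold enrichment over local background of 3.73, with quartiles of 3.24 and 4.35. The 10100 distal regions just outside the rule, with H3K4me1 peaks in both libraries, had a median of 3.99 for the weaker of their peaks, with quartiles of 3.46 and 4.54, so both sides of the threshold overlapped widely. The distance from a member to the nearest WT peak was taken in each library of a mark, and the larger of the 2 was kept. It had a median of 11836 bp for H3K4me1, against 22736 bp for H3K27ac and 84790 bp for H3K27me3. The peaks of the 2 libraries need not lie at the same place. Peaks of both libraries within 500 bp were found for 208, 56 and 21 members.

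**Figure D1:**
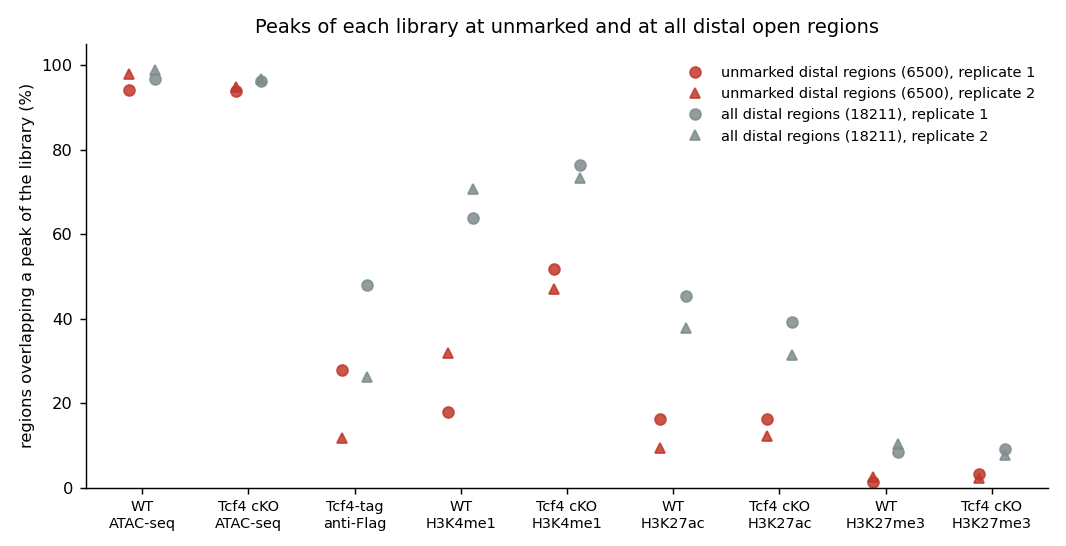
Share of regions, in percent, that overlapped a peak of each library, for the 6500 unmarked distal regions (red) and all 18211 distal regions (grey), with circles for replicate 1 and triangles for replicate 2. ATAC-seq peaks were near complete in both sets, while the H3K4me1 libraries of Tcf4 cKO reached 51.8% and 47.0% of the unmarked regions and those of WT 17.9% and 31.8%, a gap that the rule fixes in part.

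The marks of Tcf4 cKO cells were next examined at the same regions. By the peaks of both Tcf4 cKO libraries, 4025 members, or 61.9%, were again unmarked, 1974 were primed, 429 active and 72 Polycomb-marked. H3K4me1 was found in both Tcf4 cKO libraries at 2236 members, or 34.4% (33.3 to 35.6), H3K27ac at 431, or 6.63% (6.05 to 7.26), and H3K27me3 at 72, or 1.11% (0.881 to 1.39). Single libraries gave larger shares, which for H3K27ac were 16.3% in Tcf4 cKO replicate 1 and 12.2% in replicate 2. Because members were selected on missing WT peaks, they could only gain marks, and these shares alone say nothing of a direction. The same rule was therefore turned round. Of the 5448 distal regions unmarked in Tcf4 cKO, 19.6% (18.5 to 20.6) had H3K4me1 in both WT libraries, 8.81% (8.09 to 9.59) had H3K27ac and 1.03% (0.792 to 1.33) had H3K27me3.

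The larger share for H3K4me1 went with longer peak lists. The Tcf4 cKO lists of H3K4me1 held 72790 and 65049 peaks, and the WT lists 51510 and 59526. When every H3K4me1 list was reduced to its 51510 peaks with the highest −log10 q, an alternative added after the data were seen, 24.2% of the regions unmarked in WT had H3K4me1 in both Tcf4 cKO libraries and 24.0% of the regions unmarked in Tcf4 cKO had it in both WT libraries. The corresponding shares were 6.79% and 7.05% for H3K27ac and 1.06% and 1.12% for H3K27me3. The shares were thus nearly equal at equal list length. Such lists left 7243 regions unmarked in WT and 7234 in Tcf4 cKO, so close shares in both directions were nearly fixed in advance. This setting therefore cannot separate list length from a difference in H3K4me1 itself. Which of them underlies the gap in the deposited lists was not tested. The 4025 regions unmarked in both genotypes were 61.9% of the WT set and 73.9% of the Tcf4 cKO set, and 1252 members, or 19.3%, had no peak in any of the 12 mark libraries.

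**Figure D2:**
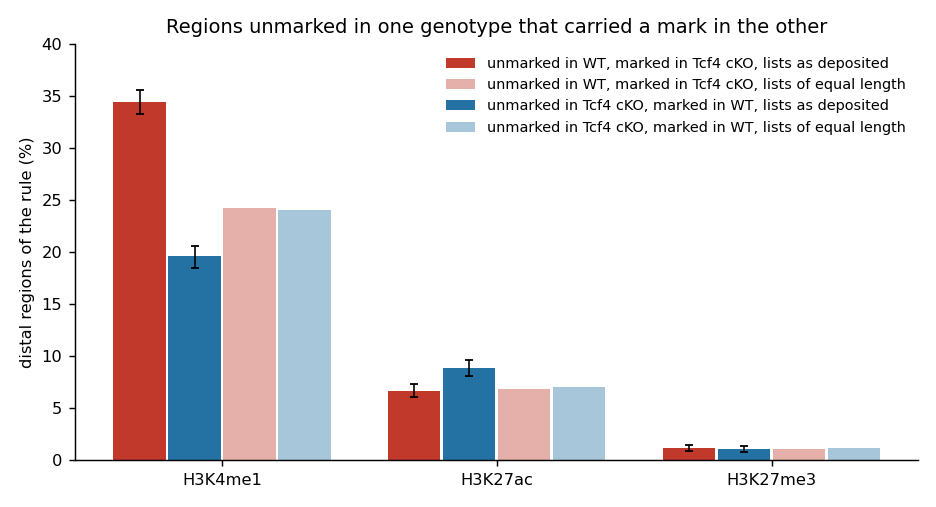
Share of distal regions, in percent, that were unmarked in one genotype and carried each mark in both libraries of the other, with the peak lists as deposited (dark bars, 95% Wilson intervals) and with the 4 lists of each mark reduced to the same length (light bars). For H3K4me1 the shares were 34.4% and 19.6% with the deposited lists and 24.2% and 24.0% with lists of equal length.

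Members with H3K4me1 and H3K27ac in both Tcf4 cKO libraries numbered 223. The member with the highest mean fold enrichment of H3K27ac among them lay 2464 bp from the start of Trpd52l3, at chr19:30000528-30001326. Its H3K27ac peaks had a fold enrichment of 6.83 and 5.23 in Tcf4 cKO replicates 1 and 2 and of 4.21 in WT replicate 1, with no peak in WT replicate 2, and its H3K4me1 peaks 5.87 and 5.31 in Tcf4 cKO and 4.71 in WT replicate 1 alone. It was unmarked in WT only because replicate 2 lacked both peaks. The mean accessibility of this member was 5.51 in WT and 6.63 in Tcf4 cKO.

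A clearer contrast was seen at chr16:15723568-15724442, in an intron of Prkdc, which encodes the catalytic subunit of a DNA repair kinase. None of the 8 WT libraries of ATAC-seq or marks had a peak there. In Tcf4 cKO replicates 1 and 2, the fold enrichment was 10.4 and 9.77 for ATAC-seq, 5.41 and 5.99 for H3K4me1, and 5.58 and 5.17 for H3K27ac, and the mean accessibility was 3.80 in WT and 6.50 in Tcf4 cKO. All 4 remaining members picked by the same rule, near Lrp1b, Gm15266 and 2 genes without a symbol, had ATAC-seq peaks in every library and a peak of at least 1 mark in 1 WT library, with differences in mean accessibility between −0.34 and 0.29.

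Mean accessibility at the unmarked regions was balanced between the genotypes. The difference, Tcf4 cKO minus WT in the authors' means, had a median of −0.01 log2 units with quartiles of −0.37 and 0.33, compared with −0.10 for all consensus regions, −0.01 for primed and −0.17 for active regions. Members at least 1 log2 unit higher in Tcf4 cKO numbered 414, or 6.37% (5.80 to 6.99), where 2.87% of all consensus regions passed this fold. Members at least 1 log2 unit lower numbered 498, or 7.66% (7.04 to 8.33), where 4.18% of all consensus regions did. After centring on the median of all consensus regions, 482 members were higher and 408 lower, so the order of these counts depends on the scaling. The primed regions had like shares, 6.58% and 7.09%, so shares above the background were not particular to regions without marks. Active regions had 0.975% higher and 6.32% lower.

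Presence and absence of peaks gave the same order. Both Tcf4 cKO libraries and no WT library had an ATAC-seq peak at 127 members, or 1.95%, against 0.56% of all consensus regions, and the reverse was found at 190 members, or 2.92%, against 1.02%. Single libraries decided many of these calls. Without WT ATAC-seq replicate 2, which had the longest list, the first count was 387, and without Tcf4 cKO replicate 1 or 2 the second was 338 or 395. A region entered the consensus table through the libraries in which it was open. Members among the 10% of distal regions least open in WT were at least 1 log2 unit higher in Tcf4 cKO in 31.8% of cases, and the WT mean that places them there is also part of the difference.

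The 5 largest gains began from WT means of at most 3.93. The largest gain lay at chr1:8410587-8411271, in an intron and nearest to a gene without a symbol, where every base was soft-masked repeat and the authors' mean was 0.00 in WT and 5.26 in Tcf4 cKO. Its ATAC-seq peaks had a fold enrichment of 6.83 and 8.76 in Tcf4 cKO replicates 1 and 2, no WT library had a peak, and no mark was found in either genotype. The next, the Gm13726 region at chr2:78005475-78006675 whose NFI core is shown above, had means of 3.56 and 7.79, with ATAC-seq peaks of 3.72 and 4.36 in Tcf4 cKO alone. It had H3K4me1 peaks of 4.07 and 3.80 and H3K27ac peaks of 2.88 and 3.00 in Tcf4 cKO, an H3K27me3 peak of 2.16 in Tcf4 cKO replicate 1, and an H3K4me1 peak of 3.54 in WT replicate 1. A neighbouring member at chr2:78021569-78022447, nearest to 4930440I19Rik, had means of 3.93 and 7.89. Its ATAC-seq peak of 4.84 in WT replicate 2 was above those of 4.12 and 4.55 in Tcf4 cKO replicates 1 and 2, and WT replicate 1 had none. The 2 others lay near Gm5356 and in an exon of Wdr7, with differences of 4.17 and 3.73, and both had H3K4me1 in both Tcf4 cKO libraries and no peak of any kind in WT.

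Among the losses, the Raet1a region at chr10:22353827-22354522 had means of 5.87 in WT and 1.98 in Tcf4 cKO, with ATAC-seq peaks of 7.83 and 7.5 in WT replicates 1 and 2 and none in Tcf4 cKO. Raet1a encodes a ligand of an activating receptor of natural killer cells. In an intron of Traf3, an adaptor of TNF receptor signalling, the member at chr12:111221842-111222466 had means of 5.46 and 1.76 and ATAC-seq peaks of 10.4 and 8.87 in WT alone. The third, near Tspan9, had a difference of −3.12 and was the only member among the 5 largest losses with Tcf4, with anti-Flag peaks of 4.23 and 4.37 over 87.1% of its length. It lay 169 bp from a GENCODE start, although the authors' annotation does not call it a promoter. The remaining pair lay near Ube2l6 and a gene without a symbol, with differences of −2.87 and −2.77. None of the 5 had a mark peak in any Tcf4 cKO library.

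Tcf4 held few of the unmarked regions. A region was counted as held when Tcf4 regions found in both anti-Flag libraries covered at least 30% of it. This applied to 604 members, or 9.29% (8.61 to 10.0), compared with 15.4% of primed, 36.0% of Polycomb-marked and 48.1% of active distal regions and 36.3% of all consensus regions. The libraries differed widely, with a peak at 27.8% of members in replicate 1 and 11.7% in replicate 2, and without replicate 2 the share held was 26%. The lower share was seen at like accessibility. Among the most open 10% of distal regions, 52.6% of members and 83.5% of the other regions were held, and among those with a WT mean from 6.08 to 6.34 the shares were 6.75% and 15.3%.

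**Figure D3:**
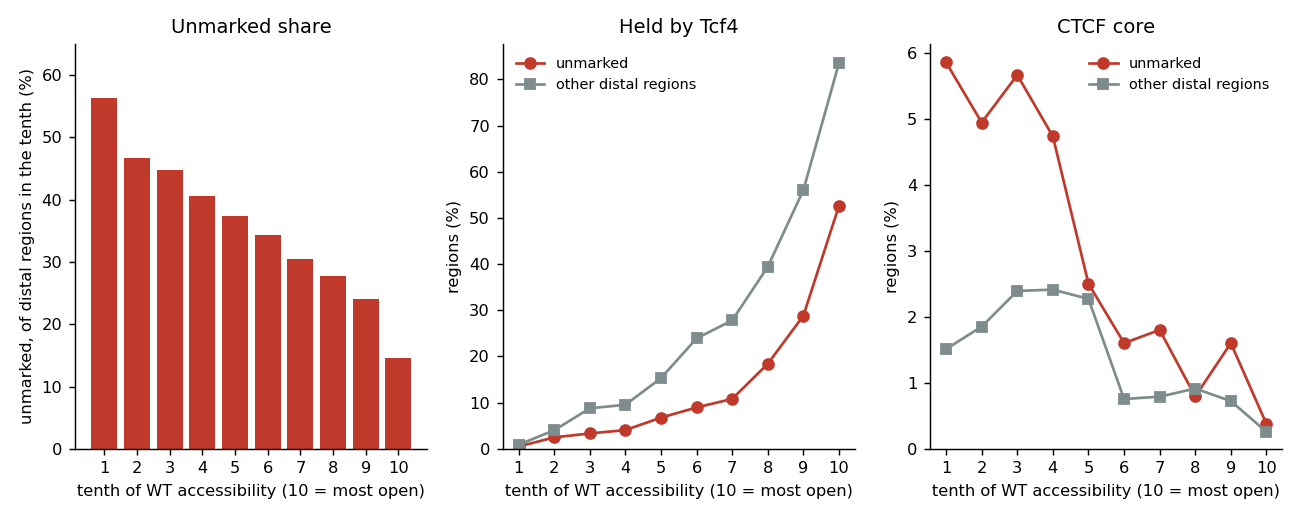
Distal regions in 10 groups of about equal size by WT mean accessibility, from the least (1) to the most open (10), with the share that was unmarked (left), the share held by Tcf4 (middle) and the share with the CTCF core (right), in percent, for unmarked regions (red) and other distal regions (grey). The unmarked share fell from 56.3% in the least open group to 14.6% in the most open, Tcf4 held fewer of the unmarked regions in each group, and the CTCF core was more frequent among them in the 4 least open groups, at 4.73% to 5.85% against 1.51% to 2.41%.

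Members held by Tcf4 were less open in Tcf4 cKO than in WT, and more open than other members in both genotypes. Their mean had a median of 7.16 in WT and 6.73 in Tcf4 cKO, against 5.94 and 6.0 for members not held, and their difference had a median of −0.39 with quartiles of −0.87 and −0.12, against 0.03 with quartiles of −0.32 and 0.37. The ATAC-seq libraries gave the same order one by one. Held members had a peak in 99.8% and 100% of cases in WT replicates 1 and 2 and in 90.1% and 91.9% in Tcf4 cKO replicates 1 and 2, and the median fold enrichment of these peaks was 7.0, 7.71, 6.19 and 6.40. Of the held members, 122, or 20.2%, were at least 1 log2 unit lower in Tcf4 cKO and 3 at least 1 log2 unit higher. Primed regions held by Tcf4 had a median difference of −0.37 and active ones −0.26, so the loss at held sites was not particular to unmarked regions, and the difference between these classes was not tested. Among all members, the median difference also fell with the WT mean. It was 0.61 for members in the least open 10% of distal regions and −0.23 for those in the most open 10%. Held members and other members were not compared at like WT level.

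Among the 6 held members with the strongest Tcf4 peaks, CAGCTG was found in the central bases of 1. The Fhl4 region at chr10:85025913-85026368 had anti-Flag peaks of 12.2 and 16.0 in replicates 1 and 2, no mark peak in any library, and a mean of 5.44 in WT and 6.69 in Tcf4 cKO, so that it was 1 of the 3 held members with a gain of at least 1 log2 unit. The Lpp region at chr16:24583435-24583871 had anti-Flag peaks of 13.5 and 14.0, and its printed bases are a run of short repeats close to the letters of telomeres. Its soft-masked share was 62.5% and its means were 4.34 and 2.87. Members near Laptm4b, which encodes a lysosomal membrane protein, and in an intron of Znrf1, a ubiquitin ligase, held 6 and 5 copies of CANNTG in their 150 central bases, and CAGCTG was found 2 times near Laptm4b and not in Znrf1. The member in an intron of Myo16 had the largest loss of the 6, from 7.78 to 5.40, with ATAC-seq peaks of 9.43 and 10.8 in WT and 7.14 and 4.95 in Tcf4 cKO.

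The E-box favoured by Tcf4 went with the same loss. CAGCTG was present in the 150 central bases of 870 members, or 13.4% (12.6 to 14.2), which was close to its share of 12.9% over all consensus regions and below the 16.0% of primed and 17.9% of active regions. The more general CANNTG, which includes CAGCTG, was present in 58.3% of members and 48.9% of all consensus regions. Of the members held by Tcf4, 27.5% had CAGCTG, against 11.9% of those not held. Members with CAGCTG that were held had a median difference of −0.56, and 47 of 166, or 28.3%, were at least 1 log2 unit lower. Members with CAGCTG that were not held by Tcf4 had a median difference of −0.12, and 92 of 704, or 13.1%, were at least 1 log2 unit lower, against 7.66% of all members.

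**Figure D4:**
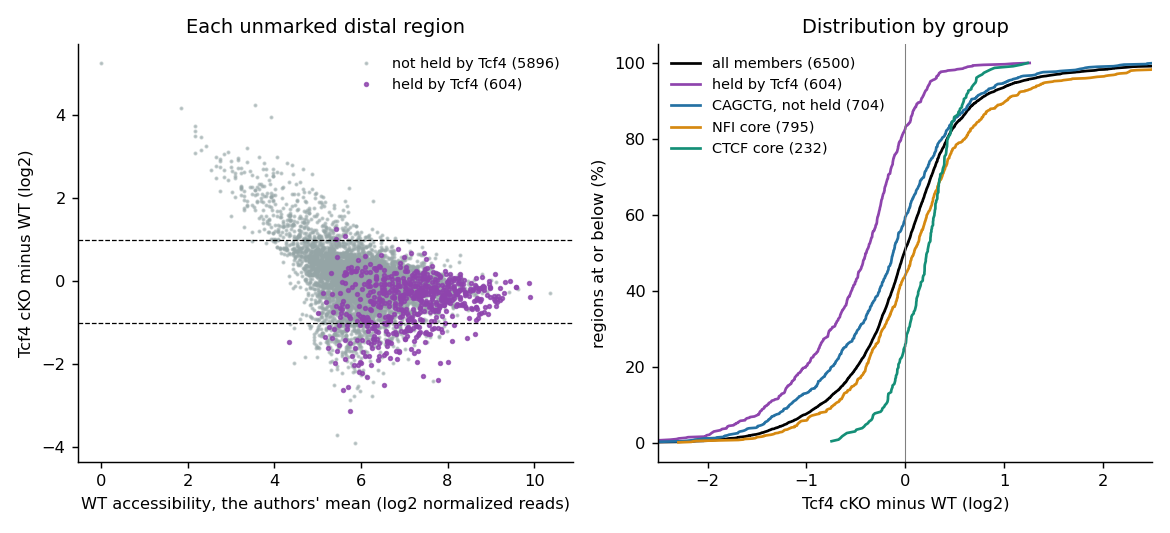
Left, each unmarked distal region by the authors' mean accessibility in WT (log2 normalized reads) and its difference, Tcf4 cKO minus WT (log2), with regions held by Tcf4 in purple and dashed lines at 1 log2 unit. Right, cumulative share of regions, in percent, by this difference for groups of members. Held regions lay to the left, with a median of −0.39, and regions with the CTCF core spread least, with a median of 0.22.

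Read in the other direction, Tcf4 and its E-box were more frequent among members lower in Tcf4 cKO than among those higher, although most of the lower members had neither feature called. Of the 498 members at least 1 log2 unit lower, 24.5% (20.9 to 28.5) were held by Tcf4 and 27.9% (24.2 to 32.0) had CAGCTG, whereas of the 414 members at least 1 log2 unit higher 0.725% (0.247 to 2.11) and 8.94% (6.55 to 12.1) did. The core TTGGCA of the NFI factors, which are known to drive astrocyte genes, had the opposite order, with 9.24% (7 to 12.1) of the lower and 20.0% (16.5 to 24.2) of the higher members. GGAATG, the core of TEAD factors, was present in 6.22% and 13.0%, and the SOX core ACAANG in 38.6% and 34.8%. In the other distal regions past the same folds, 53.4% of the lower and 2.97% of the higher regions were held by Tcf4, CAGCTG was present in 34.0% and 11.9%, and TTGGCA in 8.86% and 19.2%. The order of the shares was thus the same there, and the share held by Tcf4 was higher. The median WT mean of the unmarked members was 5.98 for the lower and 4.52 for the higher ones. Where the WT mean was at most 5.22, Tcf4 held 0.488% of all members and 0.882% of the other distal regions. A low share held by Tcf4 was thus common to weakly open regions. Lower and higher members were not compared at like WT level. Over all members, TTGGCA was present in 12.2% and over all consensus regions in 8.96%, GGAATG in 8.95% and 6.90%, and ACAANG in 36.4% and 27.5%.

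H3K4me1 in Tcf4 cKO was most frequent at members that were more open in Tcf4 cKO. It was found in both Tcf4 cKO libraries at 58.0% (53.2 to 62.6) of the members at least 1 log2 unit higher, at 34.3% (33.0 to 35.5) of those within 1 log2 unit, and at 16.3% (13.3 to 19.8) of those at least 1 log2 unit lower. H3K27ac was found at 9.18% (6.76 to 12.3), 7.02% (6.37 to 7.71) and 0.201% (0.0355 to 1.13), the last being 1 of 498 members, and the intervals of the first pair overlap. In the other distal regions, H3K4me1 was found at 91.1%, 83.6% and 65.1% and H3K27ac at 34.0%, 36.4% and 11.3%, so that H3K4me1 had the same order there and H3K27ac did not. Peaks of H3K4me1 in single WT libraries, which the rule allowed, were found at 17.9% of higher and 18.1% of lower members in replicate 1 and at 31.9% and 25.5% in replicate 2.

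**Figure D5:**
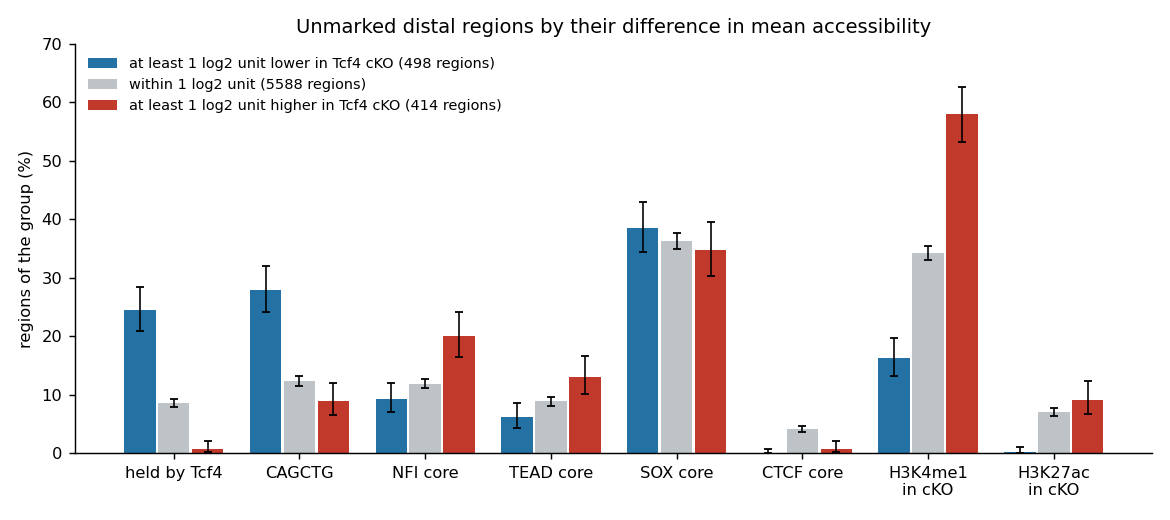
Share of members, in percent with 95% Wilson intervals, that were held by Tcf4, held each motif core in their 150 central bases, or had H3K4me1 or H3K27ac in both Tcf4 cKO libraries, for members at least 1 log2 unit lower in Tcf4 cKO (blue, 498), within 1 log2 unit (grey, 5588) and at least 1 log2 unit higher (red, 414). Tcf4 and CAGCTG were most frequent among the lower members, and the NFI core and H3K4me1 among the higher. The groups were not compared at like WT level.

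Of the 12 motif cores searched, the CTCF core had the largest ratio between its share of members and its share of all distal regions. It was present in 232 members, or 3.57% (3.14 to 4.05), compared with 1.98% of primed, 1.57% of Polycomb-marked and 0.426% of active regions and 1.36% of all consensus regions. Of the 383 distal regions with this core, 232 were unmarked. Around the strongest WT ATAC-seq summit in place of the centre, the share was 7.35% of members and 1.32% of active regions, so more cores lay near the summit than near the middle of a region. Members with the core were rather weakly open, with a median WT mean of 5.65, and few were past 1 log2 unit. Their difference had a median of 0.22 with quartiles of 0.00 and 0.40, against a median of −0.01 over all members, so most were slightly higher in Tcf4 cKO. None of the 232 was at least 1 log2 unit lower and 3 were at least 1 log2 unit higher, where 7.95% and 6.56% of members without the core were. Members with and without the core were not compared at like WT level. Tcf4 held 6 of them, H3K27ac was found at 4 in both Tcf4 cKO libraries, and H3K4me1 at 75, or 32.3%. The occupancy of CTCF itself was not measured.

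The 6 most open members with the CTCF core were seen in all 4 ATAC-seq libraries. The Tex44 region at chr1:86440243-86441011 had a mean of 7.99 in WT and 7.57 in Tcf4 cKO and no mark or anti-Flag peak in any library. The same absence of marks was seen in a member annotated as just downstream of a gene and nearest to Bcan, which encodes the matrix proteoglycan brevican, where the means were 7.72 and 7.55, and near Adm, the gene of the vasodilator adrenomedullin, where they were 7.69 and 7.67. The Crb2 region at chr2:37771508-37772363 had means of 7.78 and 7.89, ATAC-seq peaks of 8.04, 9.04, 7.24 and 7.91 in WT replicates 1 and 2 and Tcf4 cKO replicates 1 and 2, and marks in single libraries, an H3K4me1 peak of 3.32 in WT and H3K27ac peaks of 3.57 in WT and 3.89 in Tcf4 cKO. Those near Oxgr1 and Mcoln2 had differences of −0.51 and −0.33.

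The most open unmarked regions were richer in GC and closer to starts. Among the most open 10% of distal regions, 266 were unmarked, with a median GC content of 52.7% and the SP and KLF core GGGCGG in 16.5%, against 5.98% of all members and 21.4% of all consensus regions. Their nearest GENCODE start lay at a median of 4219 bp, and 46 of them, or 17.3%, lay within 1 kb of a start. The other distal regions of that group had 16.0% and 17.9%, which is alike, with a median distance of 8476 bp. CTCF cores were found in 1 of the 266.

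The 6 highest means showed small differences between genotypes. The highest lay in the 5′ UTR of Kdm6b, which encodes a demethylase of H3K27me3, at chr11:69408551-69412092, with means of 10.37 in WT and 10.07 in Tcf4 cKO, H3K4me1 peaks of 2.92 in WT replicate 2 and 2.74 in Tcf4 cKO replicate 1, and H3K27ac peaks of 2.31 in WT replicate 1 and 2.41 in Tcf4 cKO replicate 1. A region named for Spg7 at chr8:123041640-123042986 had means of 9.90 and 9.53 and ATAC-seq peaks of 9.65, 7.98, 7.69 and 7.90 in WT replicates 1 and 2 and Tcf4 cKO replicates 1 and 2. It contained a GENCODE start, although the authors' annotation gives an intron of another gene, and Tcf4 regions covered 69.0% of it. The Mxi1 member, in an intron by the authors' annotation, also contained a GENCODE start. Members at Mxi1, a repressor partner of Max, Egr3, an immediate early factor, and Mirlet7c-2, a let-7 microRNA gene, had WT means of 9.62, 9.58 and 9.57, and Tcf4 regions covered 82.9% and 84.7% of the latter pair. The sixth lay 7063 bp from a gene without a symbol on chromosome 13, with means of 9.88 and 9.84. All 6 were slightly lower in Tcf4 cKO, by 0.04 to 0.38, where the median of all consensus regions was −0.10. That of members in the most open 10% of distal regions was −0.23. The WT mean by which the 6 were picked is also part of the difference.

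The share of unmarked regions near genes of each cell type was counted next. Of 37 distal regions nearest to listed genes of OPCs and oligodendrocytes, 18 were unmarked, or 48.6%. The shares were 28 of 53 for astrocyte genes, 7 of 31 for interneuron genes, 9 of 19 for projection neuron genes, 4 of 7 for microglia genes and 4 of 13 for endothelial genes, against 6500 of 18211 over all distal regions. These are small counts. Tcf4 held 5 of the 18 near OPC and oligodendrocyte genes and none of the 28 near astrocyte genes, where it held 9.29% of all members and 36.3% of all consensus regions. The share held also rose with WT level, from 0.488% of members in the least open 10% of distal regions to 52.6% in the most open 10%. The lists were not compared at like level.

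The 18 members near OPC and oligodendrocyte genes had a median difference of −0.18. The 3 with the highest WT means among them are given here. A member in an exon of Pdgfra, the PDGF receptor that defines OPCs, at chr5:75162971-75163896, had means of 9.08 in WT and 8.66 in Tcf4 cKO, with anti-Flag peaks of 4.77 and 5.78 and a single mark peak, an H3K4me1 peak of 2.80 in WT replicate 2. A member near Olig1, a bHLH factor of the lineage, at chr16:91262557-91264152, had means of 8.98 and 8.60, and Tcf4 regions covered 32.0% of it. A member beside Gpr17, a receptor of committed precursors, had means of 8.76 and 8.28, no mark peak in any library, CAGCTG once and Tcf4 over 56.1% of its length. All 3 were lower in Tcf4 cKO by 0.38 to 0.48. They were picked by the WT mean, which is part of this difference. Members in the most open 10% of distal regions had a median difference of −0.23. The Olig1 and Gpr17 members lay 59 bp and 44 bp from a GENCODE start, although the authors' annotation does not call them promoters. The 1 member of this list past 1 log2 unit, near Sox8, was higher, from 5.68 to 6.90. It also lay close to a GENCODE start, at 146 bp.

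Of the 28 members near astrocyte genes, 5 were at least 1 log2 unit higher in Tcf4 cKO and 2 at least 1 log2 unit lower, where 6.37% and 7.66% of all members and 2.87% and 4.18% of all consensus regions were. Their median difference was −0.01, as over all members. Slc1a3, the astrocyte glutamate transporter GLAST, had 6 members. In 1 of them, at chr15:8781045-8782000, the mean was 3.98 in WT and 6.59 in Tcf4 cKO, with ATAC-seq peaks of 6.47 and 5.94 in Tcf4 cKO replicates 1 and 2, none in WT, and an H3K4me1 peak of 3.24 in Tcf4 cKO replicate 1. An intronic member at chr15:8706032-8706518 went from 5.07 to 6.97 with peaks in Tcf4 cKO alone, whereas an intergenic member at chr15:8739495-8739976 went from 5.76 to 4.38, with ATAC-seq peaks of 5.28 and 6.22 in WT and 3.02 in Tcf4 cKO replicate 1. The Slc1a3 members thus differed in direction.

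Of the 9 members near the NFI genes Nfia, Nfib and Nfix, 3 were at least 1 log2 unit higher, and the other 6 had differences between −0.65 and 0.82. In Nfia, members in introns at chr4:97953487-97954362 and chr4:97996795-97997603 were higher by 1.24 and 1.68, with an ATAC-seq peak in WT replicate 2 and in both Tcf4 cKO libraries, and the second had H3K4me1 peaks of 3.34 and 3.24 in Tcf4 cKO alone. In Nfix, a member at chr8:84712310-84713016 went from 4.66 to 6.87, with ATAC-seq peaks of 4.24 and 5.12 in Tcf4 cKO alone and no mark peak in any library. A member far from Id2, an inhibitor of bHLH proteins, was lower by 1.45. More open members near Id2, Nfix and Hes5, a Notch target, had WT means of 8.03, 7.92 and 7.47 and differences between −0.26 and 0.37.

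Among interneuron genes, Sox6, which guides cortical interneurons and is also used in OPCs, had 4 members, and the 3 most open had WT means of 8.22, 7.91 and 7.12, were lower in Tcf4 cKO by 0.54, 0.56 and 0.26, and were each covered by Tcf4 regions, over 40.4%, 82.0% and 60.8% of their length. CAGCTG was found in 2 of the 3. These 3 were also picked by the WT mean, which is part of the difference. A member near Nkx2-1, the gene whose regulatory DNA drives Cre here, at chr12:56525017-56525763, had means of 7.06 and 8.06, with ATAC-seq peaks of 4.23 and 4.35 in Tcf4 cKO alone and 52.3% soft-masked bases. It had no mark peak in any library.

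Members near genes of the remaining cell types were few. Of the 9 near projection neuron genes, none was past 1 log2 unit in either direction. The most open of them, near Tbr1, Slc17a7 and Bcl11b, had differences of −0.58, 0.16 and 0.22. Near microglia genes, the members in introns of Csf1r and Cx3cr1, both receptors of microglia, had differences of −0.62 and −0.96. The member in an intron of Spi1 went the other way, with a difference of 0.12. The 4 near the endothelial genes Cdh5 and Erg had a median difference of 0.71. Fewer cells of a type and less open chromatin per cell cannot be told apart in these bulk libraries.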

How the data were processed

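ATAC-seq and Cut&Tag were performed by the authors on sorted Nkx2.1 lineage cells. Reads were trimmed with Trim Galore and aligned to mm10 with Bowtie 2, duplicates were dropped, and MACS2 was run on single libraries, with broad peaks for H3K27me3. Peaks in the deposited lists carry their fold enrichment over local background and a −log10 q-value. Their consensus table, made with DiffBind, gives the authors' mean log2 normalized reads per genotype, without values per library. Its fold change, p-value and FDR columns, and a table of motif footprints, were not used. Single-cell RNA samples were not analysed here.

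Consensus regions were placed against each peak list, with an overlap of at least 1 bp, and a mark was assigned when both libraries of a genotype had a peak. Tcf4 held a region when at least 30% of its length lay under peaks found in both anti-Flag libraries. The difference is the mean of Tcf4 cKO minus that of WT, and 1 log2 unit was used as the fold. Motif cores were searched on both strands up to 75 bp either side of a region's centre, in GRCm38.p6 with its soft-masking. The nearest gene is the one in the authors' annotation, and distances called GENCODE are to GENCODE M21. Samples were grouped by their deposited labels, with 2 libraries per group. Coverage, gaps, classes, the motif search and intervals were tested on simulated data.

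The members, motifs and gene lists were chosen with earlier results of these data known. Regions named were the 6 with the highest WT mean, the 5 with the largest gain and the 5 with the largest loss among members with ATAC-seq peaks in each library of the higher genotype, the 6 with the highest H3K27ac in Tcf4 cKO among those with H3K4me1, the 6 with the strongest Tcf4, the 6 most open with the CTCF core, and up to 3 per gene list, with list members past 1 log2 unit. A result on 1 of these regions is not reported here. No p-value was computed across regions, so no adjustment applies. The analysis used Python 3.11.15 with numpy 2.4.6, pandas 2.3.3, scipy 1.17.1, pysam 0.24.0 and matplotlib 3.10.9. Alternatives covered peak thresholds, the overlap, the distance to a start, single libraries, centring and the motif window.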

Additional observations from a re-analysis of the deposited data

How the results depend on the processing

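Of 122 values computed under an alternative, 76 stayed within 1.5 times the count, the spread between libraries or the 95% interval. The median difference, which lay near 0, changed sign under some of them. All other results were counts or shares, which cannot change sign. The limits are these. The lists hold no reads, so weak marks and absent marks were separated only by the authors' peak threshold, and the number of members rests on it. With mark peaks of −log10 q of at least 5 there were 14330 members, H3K4me1, H3K27ac and H3K27me3 of both Tcf4 cKO libraries were found at 15.6%, 3.01% and 0.14% of them, the median difference was −0.04, 770 were higher and 1014 lower by 1 log2 unit, and the CTCF core and CAGCTG were in 2.41% and 14.8%. With peaks over at least 50% of a region there were 10415 members, with H3K4me1 at 27.7%, a median difference of −0.03 and the CTCF core in 2.80%. When a peak in either WT library took a region out, 2496 were left, with H3K4me1 at 16.7%, H3K27ac at 2.56%, 198 higher, 237 lower, the CTCF core in 4.09%, CAGCTG in 12.1% and WT-only ATAC-seq peaks at 101. With lists of equal length H3K4me1 was at 24.2%, a setting chosen after seeing the data. Counting ATAC-seq peaks of −log10 q of at least 5 gave 283 members with peaks in Tcf4 cKO alone and 532 in WT alone. Centring on all consensus regions moved the median difference to 0.08, with 482 higher and 408 lower, which turns round the order of these counts. The CTCF core and CAGCTG were in 6.95% and 24.1% within 150 bp of the centre and in 7.35% and 15.3% around the strongest WT summit. The cause of these shifts was not tested, except that longer windows hold more sequence and stricter peaks leave more regions unmarked.

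Leaving out 1 library at a time gave 3978 to 4439 members, H3K4me1 at 25.7% to 51.8%, H3K27ac at 3.99% to 16.3%, H3K27me3 at 0.704% to 3.28%, a median difference of −0.01 to 0.01, 273 to 327 higher and 337 to 362 lower members, Tcf4 at 6.65% to 26%, the CTCF core in 3.42% to 4.19%, CAGCTG in 12.5% to 13.1%, and ATAC-seq peaks in Tcf4 cKO alone at 104 to 387 and in WT alone at 139 to 395 members. Counting mark peaks within 500 bp left 6232 members and keeping regions over 2500 bp from a start left 5485, and every value stayed within the limits given first. No paired analysis was possible because the results come from no test, and the table of means holds no value per library.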

Other observations

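The share of members past 1 log2 unit in either direction was counted along the genome, with no test of its spread. Over 197 stretches of 10 Mb with at least 15 members, the median share past that fold was 13.6%, with quartiles of 9.09% and 18.5%. The stretch with the highest share, chosen after its value was seen, was the first 10 Mb of chromosome 15, where 5 of 15 members were higher and 3 lower, the Slc1a3 members among them. On chromosome 2 between 70 and 80 Mb, 6 of 40 members were higher and 7 lower, the Gm13726 and 4930440I19Rik members among them.

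Genes with the most unmarked regions nearest to them were Npas3, a bHLH-PAS factor, and Trio, a guanine nucleotide exchange factor, with 8 each of their 14 and 12 distal regions, named after their counts were seen. Sox5, a SoxD factor, had 7 of 12. None of the members near Sox5 was past 1 log2 unit.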
